A study of Mus musculus with 8 samples.

Results

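Phosphatidylcholine is the main phospholipid of liver membranes, lipoproteins and bile, and the 9 genes described here encode proteins that make it, remodel it, carry it between membranes or export it. They were chosen by gene symbol, as 9 of the 15210 genes in the deposited table: Pctp, because its level was higher in the livers of mice given 4,4'-methylenebis(2-chlorobenzenamine) (MOCA), and Stard10, Chka, Pcyt1a, Chpt1, Pcyt2, Pemt, Lpcat3 and Abcb4, for their place in phosphatidylcholine synthesis, transfer and export. All 9 were in the table and all 9 passed the filter on low values.

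Hepatocytes make phosphatidylcholine by a pair of routes. In the CDP-choline route, choline is phosphorylated, activated with CTP and joined to diacylglycerol. In the other route, phosphatidylethanolamine is methylated stepwise by an enzyme that is abundant in liver. The product is then reshaped by exchange of acyl chains, moved through the cytosol by soluble transfer proteins, built into very low density lipoprotein, or flipped into bile at the canalicular membrane.

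Liver RNA was sequenced from 8 female F1-TKm30 mice, 1 library per mouse. The line belongs to the immunodeficient NOG background, and the animals of both groups carry a mutant (clone 30) of herpes simplex virus thymidine kinase as a cDNA driven by the mouse transthyretin enhancer and promoter, which is active in hepatocytes. The control group (n = 4) was given 0% and the treated group (n = 4) 0.05% MOCA, a curing agent for polyurethane of the aromatic amine class, for 4 weeks. Ages were 17 or 21 weeks and are not assigned to single mice. The treatment text speaks of C57BL mice, whereas the strain given for every sample is F1-TKm30.

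Values are normalised counts, that is, CPM scaled between libraries by the authors. The libraries held 15024945 to 17101844 reads, and all 4 MOCA libraries were less deep than any control library. Differences are MOCA minus control on the scale of log2(normalised count + 1), with a standard error (SE) and a 95% confidence interval from the limma fit over all 12008 genes tested. For genes with low values this scale gives a smaller change than a plain ratio would. All 7 hepatocyte markers were present, with a summed level of 111150 to 130540 in control and 97101 to 110210 in MOCA livers, so that the summed level did not overlap between the groups. Singly, Alb, which makes up most of that sum, and 4 others overlapped. Apob and Trf were lower in every MOCA liver, as were 4.96% of all genes tested. Of the 7, limma and edgeR called 0, beside 0.666% and 0.675% of all genes tested. DESeq2 called 2, beside 3.54%, and 1 had an unadjusted p under 0.05, beside 17.5%. The part of these markers in the results below was not tested. In bulk liver, fewer cells of a type and less RNA per cell cannot be told apart.

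Of the 9 genes, Pctp was higher in MOCA livers and the other 8 did not pass the test. The control level of Pctp was low, and in MOCA livers the mean was 2.26 times as high. The 3 enzymes of the CDP-choline route, the ethanolamine enzyme Pcyt2, the methyltransferase Pemt, the transfer protein Stard10 and the canalicular floppase Abcb4 had ratios of group means, MOCA over control, from 0.916 (Pemt) to 1.02 (Stard10), and that of Lpcat3 was 0.868. In the fit, 1 of the 9 genes was called (adjusted p under 0.05), beside 0.666% of all genes tested, and 0.400% were called as higher. That gene is Pctp, and because its difference in this same comparison put it among the 9, the count is a description and is not evidence of a response. Among the other 8, limma, edgeR and DESeq2 called 0, beside 0.666%, 0.675% and 3.54% of all genes tested. An unadjusted p under 0.05 in limma was found for 1 of the 8, Lpcat3, and for 17.5% of all genes tested. Their 95% intervals spanned -0.39 to 0.24 between them.

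Pctp encodes phosphatidylcholine transfer protein, also called StARD2, a small START-domain protein that binds 1 phosphatidylcholine molecule and moves it between membranes. The gene lies on chromosome 11 of mm10, from 89982665 to 90002894 on the minus strand. The 250 bases before its RefSeq start are printed because Pctp is the gene that differed, and those before Stard10, the other soluble transfer protein, for comparison. Both come from RefSeq on GRCm38.p6, read 5′ to 3′ along the gene's strand, chr11:90002895-90003144 on the minus strand for Pctp and chr7:101316836-101317085 on the plus strand for Stard10. Capitals mark matches on either strand to the motifs named in the next paragraph.
Pctp: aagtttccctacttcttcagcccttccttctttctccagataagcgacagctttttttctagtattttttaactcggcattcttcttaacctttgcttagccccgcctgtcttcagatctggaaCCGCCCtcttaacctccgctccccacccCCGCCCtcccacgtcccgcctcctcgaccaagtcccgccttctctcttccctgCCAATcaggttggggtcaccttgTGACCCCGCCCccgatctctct
Stard10: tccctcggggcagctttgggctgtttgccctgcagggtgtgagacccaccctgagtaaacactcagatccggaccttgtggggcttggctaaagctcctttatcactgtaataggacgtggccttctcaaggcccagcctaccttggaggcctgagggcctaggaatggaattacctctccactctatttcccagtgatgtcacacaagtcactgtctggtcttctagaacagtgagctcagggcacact

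In all, 8 short motifs were searched on both strands, and a match is a description of letters, not of a bound site. The Pctp window held 3 GC boxes (GGGCGG), beginning 126, 98 and 17 bases before the start, 1 CCAAT box (CCAAT) at 45 bases, and 1 core of the antioxidant response element (TGACNNNGC) at 22 bases, whose last letters overlap the nearest GC box. Of 32851 windows of the same length before RefSeq gene starts, 32.7% held a GC box, 33.8% a CCAAT box and 10.2% the antioxidant response element core. Neither window held a TATA box (TATAAA, 12.4% of windows), an E-box (CACGTG, 6.02%), the hexamer bound by nuclear receptors (AGGTCA, 14%), or that hexamer repeated in the same direction after 1 or 4 bases (0.0335% and 0.0152%). The Stard10 window held none of the 8 motifs. GC content was 54.8% in the Pctp window and 54.4% in that of Stard10, beside a median of 52.4% over all windows. Of the other members, Chka, Chpt1, Lpcat3 and Abcb4 each held at least 1 GC box and 1 CCAAT box. In Pcyt1a, 2 of 3 windows held the core of the antioxidant response element. Those 2 windows overlap and share a match, and both also held GC boxes. A Pemt window held a CCAAT box.

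The normalised count of Pctp was 15.8, 14.0, 11.7 and 17.9 in control replicates 1 to 4 and 50.3, 24.0, 25.1 and 35.0 in MOCA replicates 1 to 4. Every MOCA liver was above every control liver, as was the case for 5.50% of all genes tested. The MOCA livers also differed among themselves, the highest being 2.09 times the lowest, whereas the highest control was 1.53 times the lowest. The group means were 14.9 ± 2.65 and 33.6 ± 12.2 (SD, n = 4 each), a difference of 1.08 on the log2 scale (SE 0.21, 95% interval 0.62 to 1.53). These values rest on 190 to 790 reads per library, so that counting error alone is at most 7.25% of a value (1 SD). Leaving out 1 mouse at a time kept the difference between 0.87 and 1.21. The call itself was kept in 3 of those 8 fits and lost without control replicate 1 (1.11), 2 (1.06), 3 (0.98) or 4 (1.17) and without MOCA replicate 4 (1.04). No other annotated gene overlaps the span of Pctp.

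**Figure D1:**
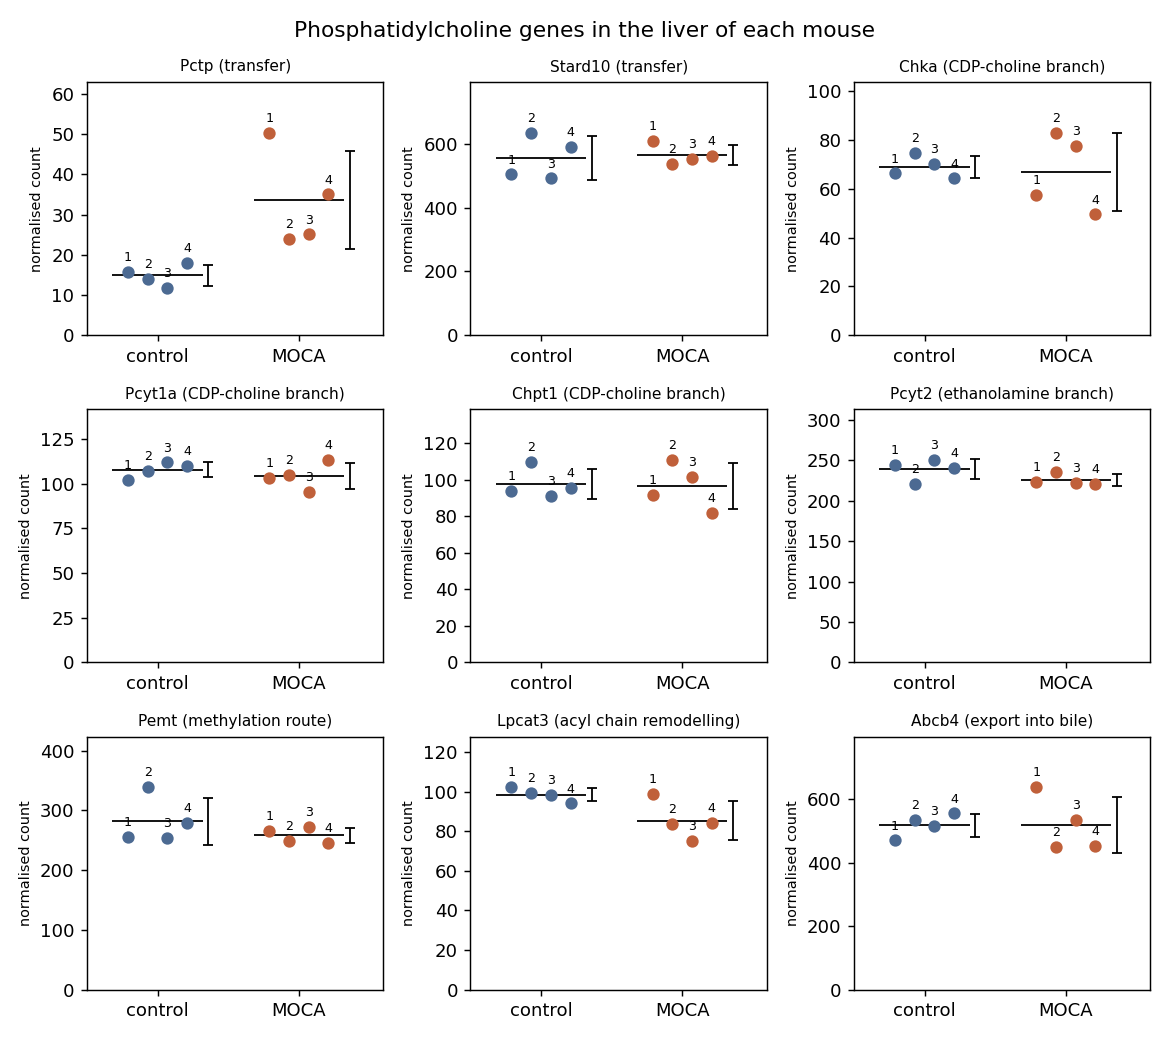
Normalised counts of the 9 genes (y axis, from 0) in control and MOCA livers (x axis), 1 numbered point per mouse, with the group mean as a line and its SD (n = 4) as a bar. The 4 MOCA livers sit above the 4 control livers for Pctp, from 24.0 to 50.3 against 11.7 to 17.9, and the groups overlap for the other 8 genes.

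Stard10 encodes a second START-domain protein, which binds phosphatidylcholine and phosphatidylethanolamine. Its normalised count was 503.7, 634, 491 and 589 in control replicates 1 to 4 and 609, 536, 552 and 562 in MOCA replicates 1 to 4. All MOCA values lay inside the control range, and the difference was 0.03 (SE 0.09, 95% interval -0.17 to 0.24, limma adjusted p = 0.891). The sign of this difference turned without control replicate 1 or 3 and without MOCA replicate 1. The lower end of the interval for Pctp is above the upper end of that for Stard10. Because Pctp was chosen for its difference, this is a description and not a test between the genes. Acot13, which encodes the thioesterase Them2, a binding partner of the Pctp protein, was named after its values were seen and measured 18.6 ± 2.65 in control and 17.7 ± 0.548 in MOCA livers (limma adjusted p = 0.82).

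The CDP-choline route begins with Chka, choline kinase alpha, which phosphorylates choline. Chka measured 66.2, 74.5, 70.2 and 64.2 in control replicates 1 to 4 and 57.5, 82.8, 77.5 and 49.4 in MOCA replicates 1 to 4. MOCA replicates 2 and 3 lay above all control livers and MOCA replicates 1 and 4 below all of them. The means of 68.8 ± 4.57 and 66.8 ± 15.9 were accordingly close, with a difference of -0.07 (SE 0.14, 95% interval -0.38 to 0.24, limma adjusted p = 0.846), and its sign turned without MOCA replicate 4. The coefficient of variation was 6.65% over control and 23.8% over MOCA livers, with counting error of at most 3.52% in a library.

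Pcyt1a encodes the enzyme that activates phosphocholine with CTP, the step that usually limits the rate of the route. It was the steadiest of the 3 CDP-choline genes. The control livers held 102, 107, 112 and 110 and the MOCA livers 103, 105, 95.4 and 113. The ranges overlapped, and the difference was -0.05 (SE 0.07, 95% interval -0.21 to 0.10, limma adjusted p = 0.752).

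Chpt1, the choline phosphotransferase that completes the route, measured 93.8, 110, 91.4 and 95.7 in control and 91.8, 111, 102 and 81.9 in MOCA replicates 1 to 4. The difference was -0.02 (SE 0.10, 95% interval -0.24 to 0.19, limma adjusted p = 0.931). In MOCA livers Chpt1 was ordered like Chka, with replicate 2 highest, then 3, 1 and 4, and Pctp was ordered nearly the other way, with replicate 1 highest, then 4, 3 and 2. With 4 livers in a group no correlation was computed, and the order is given as a description.

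Pcyt2 encodes the enzyme that activates phosphoethanolamine with CTP, which serves the ethanolamine branch and so supplies the substrate of Pemt. Control livers held 244, 221, 250.4 and 241 and MOCA livers 224, 236, 222 and 221. All 4 MOCA values lay below 3 of the control values, while control replicate 2 lay among them. The difference was -0.08 (SE 0.07, 95% interval -0.22 to 0.06, limma adjusted p = 0.561).

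Pemt, the phosphatidylethanolamine N-methyltransferase, measured 256, 339, 254 and 279 in control and 266, 249, 272 and 246 in MOCA replicates 1 to 4. Control replicate 2 was above the other 7 livers, which lay between 246 and 279. The difference was -0.12 (SE 0.09, 95% interval -0.32 to 0.09, limma adjusted p = 0.558), and it was -0.03 without control replicate 2. The coefficient of variation was 14.0% over control and 4.93% over MOCA livers, the reverse of the order seen for Chka.

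Lpcat3 encodes the lysophosphatidylcholine acyltransferase that adds polyunsaturated acyl chains. Its control livers held 102, 99.3, 98.2 and 94.0 and its MOCA livers 98.7, 83.6, 75.1 and 84.2. MOCA replicates 2, 3 and 4 lay below all control livers and MOCA replicate 1 lay inside the control range. The difference of -0.21 (SE 0.08, 95% interval -0.39 to -0.03) did not pass the test over all genes (limma adjusted p = 0.232), and it ranged from -0.28 to -0.15 over 21 other settings, none of which called it. Lpcat3 overlaps Emg1, on the opposite strand, by 334 bases, and no source used here says whether the counting used strand. Emg1 had a mean normalised count of 26.4. The spans of Stard10, Chka, Pcyt1a, Chpt1 and Abcb4 also overlap other annotated genes. Of those genes only Sycp3 was found in the deposited table by symbol, with a mean normalised count of 0.261. Sycp3 overlaps Chpt1 by 13668 bases on the opposite strand. The protein-coding Slc51a, which overlaps Pcyt1a by 567 bases on the opposite strand, was not found by that symbol.

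Abcb4 encodes the floppase Mdr2, which delivers phosphatidylcholine into bile. It measured 470, 534, 515 and 555 in control and 638, 449, 534 and 453 in MOCA replicates 1 to 4. MOCA replicate 1 was above all control livers, MOCA replicates 2 and 4 were below all of them, and the group means were 519 ± 36.3 and 519 ± 88.7 (SD, n = 4 each). The difference was -0.01 (SE 0.11, 95% interval -0.26 to 0.23, limma adjusted p = 0.97). MOCA replicate 1 thus held the highest value of the 8 livers for Abcb4 as well as for Pctp.

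**Figure D2:**
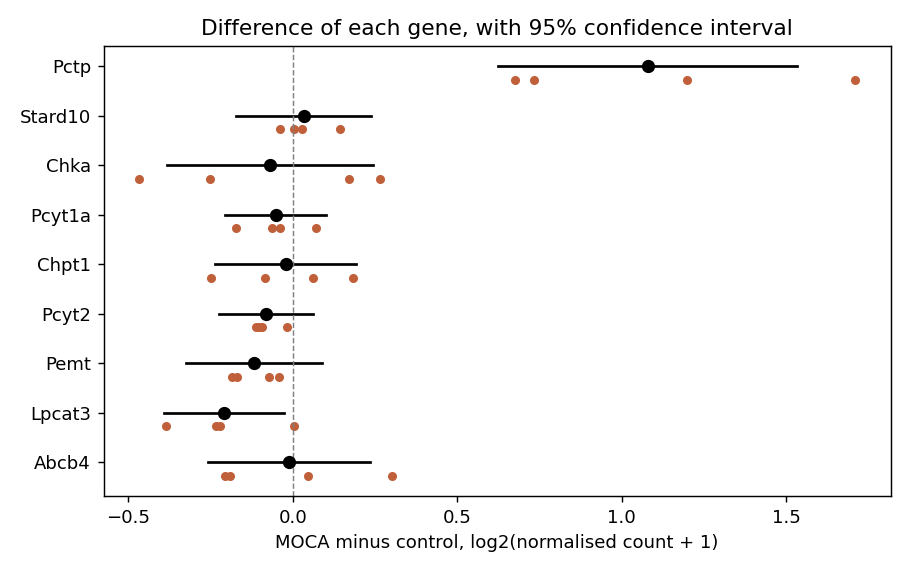
Difference of each gene (y axis) between MOCA and control livers in log2(normalised count + 1) (x axis), as black points with the 95% confidence interval from limma, and each MOCA liver against the control mean as a small point below. Pctp lies at 1.08 (0.62 to 1.53), whereas the intervals of the other 8 genes lie between -0.39 and 0.24. Because Pctp was chosen for its difference, the gap between them is a description.

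Against the control mean, the Pctp deviations of MOCA replicates 1 to 4 were 1.71, 0.67, 0.73 and 1.20 in log2(normalised count + 1), and those of control livers ran from -0.30 to 0.27. For the other 8 genes the largest deviation among MOCA livers was that of Chka in replicate 4, at -0.47, followed by Lpcat3 in replicate 3, at -0.39. No MOCA liver deviated in 1 direction for all 9 genes.

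**Figure D3:**
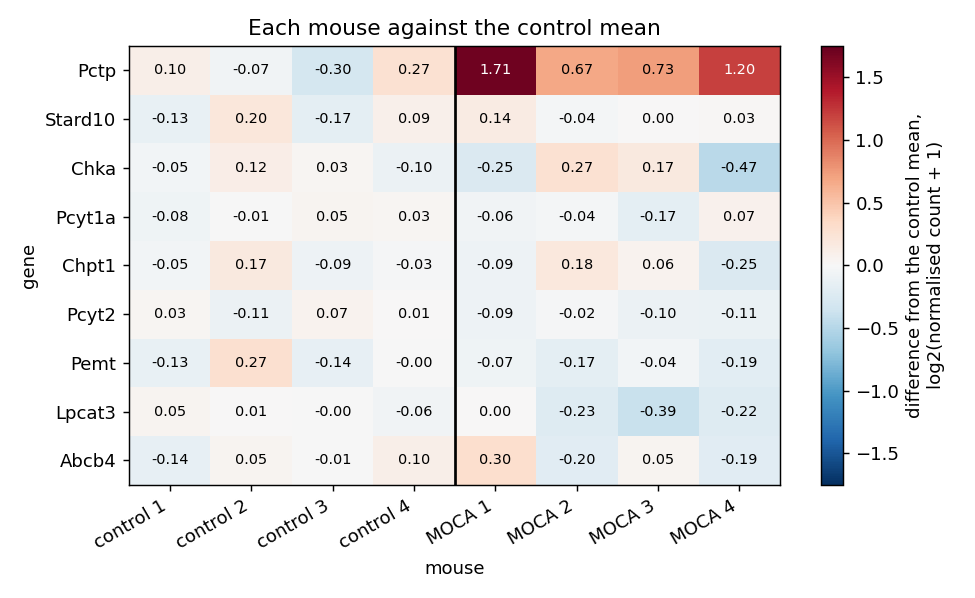
Deviation of each mouse (columns) from the control mean for each gene (rows), in log2(normalised count + 1), with red above and blue below. The row of Pctp is red in all 4 MOCA livers, from 0.67 to 1.71, and Chka is above the control mean in MOCA replicates 2 and 3 and below it in replicates 1 and 4.

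Levels of different genes were compared per kb of gene length. Per kb of the union of annotated exons, control livers held 229 ± 28.3 of Stard10, 134 ± 18.8 of Pemt, 55.3 ± 3.87 of Abcb4, 55.02 ± 2.87 of Pcyt2 and 30.1 ± 1.04 of Lpcat3 (normalised count per kb, SD, n = 4). Below these came Pcyt1a with 14.5 ± 0.569, Chpt1 with 11.7 ± 0.994, Chka with 5.72 ± 0.38 and Pctp with 5.46 ± 0.972. Abcb4 and Pcyt2, neighbours in that order, did not differ beyond their spread, nor did Chka and Pctp. The transfer protein genes thus stood at both ends, with Stard10 first and Pctp among the last. With the mean or the longest annotated transcript as the length, Stard10 and Pemt stayed first and second and Chka and Pctp eighth and ninth, but Chka then exceeded Pctp by 37.8 against 5.46 or 14.8 against 5.46. In MOCA livers Pctp measured 12.3 ± 4.47 per kb, and its place moved from ninth to seventh with the exon union and stayed ninth with the other lengths.

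The rest of the pathway was described with 7 lists chosen by function, holding 89 genes, of which 82 were tested. None of the 82 was called by limma or edgeR, beside 0.666% and 0.675% of all genes tested. An unadjusted p under 0.05 was found for 13 of the 82, beside 17.5% of all genes tested, and DESeq2 called 4, beside 3.54%. Log2 differences ran from -0.55 to 0.42, each smaller in size than that of Pctp. Pctp was chosen for its difference and the lists by function, so this order is a description. The median of the 82 was -0.02, and that of all genes tested was 0.01. In 2 of the 82 all MOCA values lay above and in 4 all lay below the control values, whereas this held for 10.5% of all genes tested (5.50% above and 4.96% below). With upper quartile scaling limma called 1 gene of the 82, among those of methyl supply and choline oxidation.

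Choline uptake and the remaining CDP-choline genes held no call among 9 tested (limma, edgeR and DESeq2; 0 at an unadjusted p under 0.05). Their median difference was -0.09. Cept1, a choline and ethanolamine phosphotransferase, measured 93.1 ± 12.2 in control and 90.8 ± 4.13 in MOCA livers, and the choline transporter Slc44a1 59.1 ± 4.97 and 55.3 ± 4.35.

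The 8 genes of the ethanolamine and phosphatidylserine branch held no call either (limma, edgeR and DESeq2; 0 at an unadjusted p under 0.05), with a median of -0.05. Ept1, the ethanolamine phosphotransferase, measured 130 ± 9.52 and 144 ± 9.89 (limma adjusted p = 0.338). The ethanolamine kinases Etnk1 and Etnk2 measured 110 ± 6.08 and 112 ± 10.2, and 84.2 ± 13.6 and 91.9 ± 11.02, in control and MOCA livers.

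Methyl supply and choline oxidation, which feed and compete with the Pemt reaction, held no call by limma or edgeR among 13 genes tested. Here 5 of the 13 had an unadjusted p under 0.05 and DESeq2 called 3, beside 17.5% and 3.54% of all genes tested, and the median difference was -0.09. Mat1a, which makes the methyl donor S-adenosylmethionine, measured 3471 ± 154 in control and 3258 ± 253 in MOCA livers (limma adjusted p = 0.66). Gnmt, a glycine methyltransferase that consumes the same donor, measured 1453 ± 263 and 1099 ± 89.4, a difference of -0.39 (SE 0.13, limma adjusted p = 0.166). Bhmt, which passes a methyl group from betaine to homocysteine, measured 1665 ± 705.5 and 1755 ± 367. Dmgdh, a dehydrogenase of the product of that reaction, and Bhmt2, a related homocysteine methyltransferase, were named after their values were seen. Dmgdh measured 524 ± 52.0 and 405 ± 13.3, with all MOCA values below all control values (-0.37, SE 0.08, limma adjusted p = 0.0652). Bhmt2 measured 129 ± 5.93 and 158 ± 16.2, with all MOCA values above all control values (0.29, SE 0.08, limma adjusted p = 0.122). Of all genes tested, 4.96% were lower and 5.50% higher in every MOCA liver.

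Genes that supply diacylglycerol held no call by limma or edgeR among 13 tested, and the median was -0.02. Of the 13, 1 had an unadjusted p under 0.05 and DESeq2 called 1, beside 17.5% and 3.54% of all genes tested. That gene was Agpat6, the glycerol-3-phosphate acyltransferase Gpat4, which was named after its values were seen. It measured 182 ± 24.4 in control and 139 ± 10.4 in MOCA livers (-0.38, SE 0.10, limma adjusted p = 0.104). All its MOCA values lay below all control values, as for 4.96% of all genes tested. The phosphatidate phosphatases Lpin2 and Lpin1 measured 421 ± 60.2 and 437 ± 111, and 362 ± 43.03 and 315 ± 103. The acyltransferase Agpat3 measured 287 ± 19.8 and 259 ± 25.03.

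Acyl chain remodelling and breakdown held no call among 16 genes tested (limma, edgeR and DESeq2; 2 at an unadjusted p under 0.05), with a median of 0.04. Lcat, the plasma enzyme that moves an acyl chain from phosphatidylcholine to cholesterol, measured 563 ± 56.2 in control and 462 ± 41.9 in MOCA livers (-0.28, SE 0.09, limma adjusted p = 0.167). Lypla1, a thioesterase also known as a lysophospholipase, measured 196 ± 20.9 and 220 ± 13.03, and the lysophospholipase Pnpla7 measured 88.9 ± 13.2 and 88.4 ± 7.44. Gde1, named after its values were seen, had the largest negative difference in the 7 lists (-0.55, SE 0.18, limma adjusted p = 0.155). It measured 31.9 ± 4.68 and 21.9 ± 5.89, with all MOCA values below all control values, as for 4.96% of all genes tested.

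Among the other START-domain and phospholipid transfer genes, limma, edgeR and DESeq2 called 0 of 16 tested, with a median of -0.01. Of the 16, 3 had an unadjusted p under 0.05, beside 17.5% of all genes tested. Acot12, an acetyl-CoA hydrolase with a START domain, measured 210 ± 6.86 in control and 185 ± 36.4 in MOCA livers. Stard7, which carries phosphatidylcholine to mitochondria, measured 130.1 ± 8.96 and 119 ± 6.12, and the sterol-binding Stard5 105 ± 10.7 and 114 ± 13.2. The sterol carrier gene Stard4, named after its values were seen, had the largest positive difference in the 7 lists, with 43.7 ± 6.46 and 59.04 ± 9.73 (0.42, SE 0.13, limma adjusted p = 0.145).

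The partners of Abcb4 at the canalicular membrane held no call among 7 tested (limma, edgeR and DESeq2; 2 at an unadjusted p under 0.05), and their median of -0.22 was the lowest of the 7 lists. Abcb11, the bile salt export pump, measured 827 ± 123 in control and 752 ± 60.3 in MOCA livers (limma adjusted p = 0.592). Abcc2, an organic anion exporter, measured 638 ± 54.3 and 549 ± 58.8 (-0.22, SE 0.09, limma adjusted p = 0.262), and Tmem30a, a subunit of phospholipid flippases, 261 ± 33.8 and 270 ± 22.3.

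**Figure D4:**
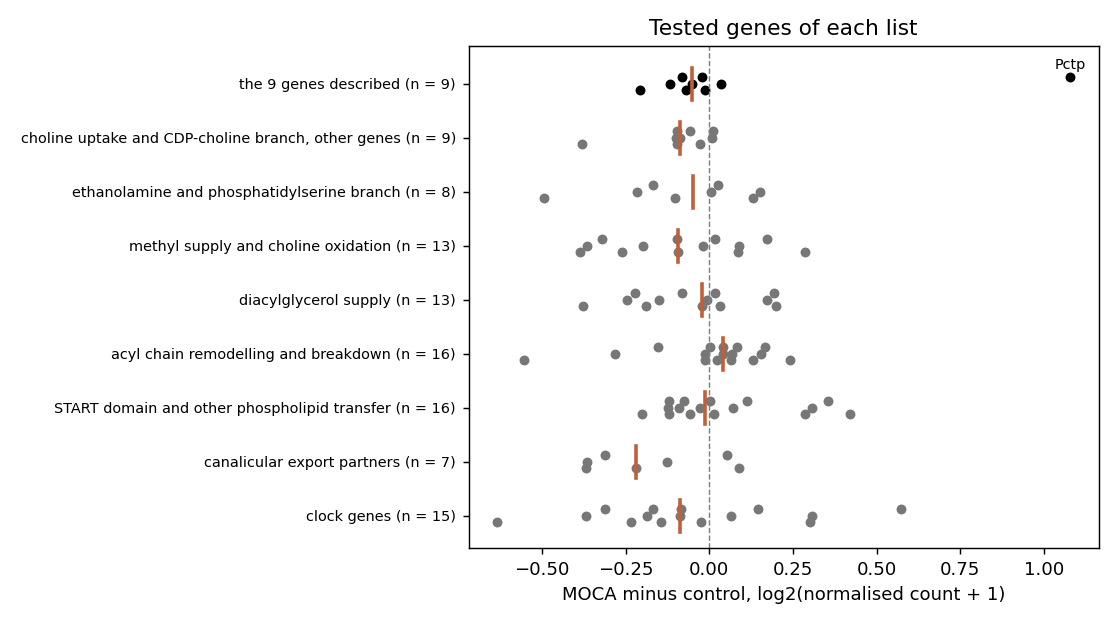
Difference of each tested gene (points) between MOCA and control livers in log2(normalised count + 1) (x axis), for the 9 genes and for each list (y axis), with the median as a line. Pctp, at 1.08, lies apart from the 82 tested genes of the 7 pathway lists, which run from -0.55 to 0.42, and from the clock genes. Because Pctp was chosen for its difference, this distance is a description.

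The profile of Pctp over the 8 livers was compared with that of 9273 other tested genes with a mean normalised count of at least 5, as the root mean square difference between profiles in log2(normalised count + 1), each centred on its own mean. Since the profile includes the difference for which Pctp was chosen, the nearest genes are a description. The smallest values were those of 1810055G02Rik (0.27), Atp8b5 (0.27), Col15a1 (0.28), Ccng1 (0.29) and Uros (0.30), beside 0.63 for the deviation of Pctp from its own mean. Atp8b5 encodes a P-type ATPase of the flippase family and measured 7.53 ± 1.66 in control and 12.6 ± 1.99 in MOCA livers (limma adjusted p = 0.0632). In Atp8b5, Ccng1 and Col15a1 the MOCA livers stood in the same order as in Pctp, and in 1810055G02Rik and Uros they did not. All 5 genes were picked for likeness over these same livers, so a shared order is a description. Col15a1, a collagen, measured 13.0, 5.48, 5.70 and 12.6 in MOCA replicates 1 to 4 and overlapped with the control livers, and of the 5 genes Ccng1 and Uros passed the test (limma). Among the other 8 genes of the set the nearest to Pctp was Stard10, with 0.60.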

How the data were processed

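Per the labels' protocols, ribosomal RNA was depleted and directional libraries were made. Per the submitters' processing notes, the tools were edgeR, RSEM, Bowtie2 and Trimmomatic 0.38 and the build mm10, with no role or order given. The authors deposited a single signal table of normalised counts, 1 column per mouse. In it 100% of values were whole multiples (within 0.001) of 1 step per column, and this step, 0.0581 to 0.0648, equals the factor edgeR's TMM gives, so whole reads were recovered. No column was left out (0).

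MOCA and control livers were compared with limma 3.58.1 (R 4.3.3), eBayes with trend, on log2(value + 1), over the 12008 genes that reached a value of 1 in 4 libraries or more, with Benjamini-Hochberg adjustment over all of them. The fit was tested on simulated data. On the recovered reads edgeR 4.0.16 (81 calls) and DESeq2 1.42.0 (425) were run beside its 80 calls. Other settings covered pseudocounts, filters, scalings, variance moderation, sample weights, a replicate block and leaving out each mouse. Each library is labelled as a separate numbered mouse.

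Members and lists were chosen with earlier results of these data known. The text names all members, in each list the called genes and the 3 with the highest level, and the 5 profiles nearest to Pctp (1 of these genes is not reported here); other genes were chosen after their values were seen. Gene positions and lengths are from GENCODE vM21, promoter windows from RefSeq for 8 of the 9 genes.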

Additional observations from a re-analysis of the deposited data

Results flagged for a closer look

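Among 38 named genes, 76 groups of 4 livers were checked for a liver far from the others, where chance alone flags about 1 group in 20, and 2 were found, neither in one of the 9 phosphatidylcholine genes. Acot12 measured 199.6 in control replicate 2, below 213 to 214 in the other control livers. Pnpla7 measured 77.3 in MOCA replicate 2, below 91.5 to 93.04 in the other MOCA livers.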

How the results depend on the processing

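Pctp was higher in MOCA livers under all 21 other settings (0.87 to 1.21 on the log2 scale) and called in 12 of them. It was not called with a pseudocount of 4 (0.95), eBayes without trend (1.08), robust eBayes (1.08) or sample weights (0.99), where 0 of the 9 genes were called. Leaving out 1 mouse gave 0 or 1 call among the 9. The other 8 genes were called in none. Small differences turned sign: with equal column sums Pcyt1a (0.002), Chpt1 (0.031) and Abcb4 (0.041), and with sample weights Chka (0.014) and Chpt1 (0.025). With equal column sums the median difference over all genes tested was 0.053, beside 0.005 as deposited. Without 1 mouse, the differences ran from -0.022 to 0.10 for Stard10, -0.18 to 0.062 for Chka, -0.091 to 0.053 for Chpt1 and -0.12 to 0.052 for Abcb4. Over all genes 171 were called with equal column sums, 132 of them higher and 39 lower, 96 with upper quartile scaling, 45 higher and 51 lower (48 and 32 as deposited), 425 with DESeq2, and 29 to 77 without 1 mouse. In the list of methyl supply and choline oxidation, upper quartile scaling gave 1 call and DESeq2 3, and DESeq2 gave 1 for diacylglycerol supply. The cause of these differences was not tested.

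Same-numbered mice did not deviate together (correlations of -0.074 to 0.036, beside -0.161 to 0.212 for mice with different numbers). No pairing by number was seen, which does not show that there is none. With the replicate block 30 genes were called over all, beside 80 without it, and Pctp stayed called.

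Levels per kb depend on the length used. With the mean transcript length they were 555.4 (Stard10), 468.8 (Pemt), 273 (Pcyt2), 202 (Abcb4), 96.6 (Lpcat3), 54.0 (Pcyt1a), 46.5 (Chpt1) and 37.8 (Chka). With the longest transcript, chosen after seeing the data, they were 322, 281, 127, 127, 41.5, 22.5, 20.1 and 14.8 in the same order. Depth limited Pctp most, with as few as 190 reads in a library.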

Other observations

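Clock genes depend in level on the hour of sampling, which no source used here gives. Of 15 tested, limma, edgeR and DESeq2 called 0, and the median difference was -0.09. An unadjusted p under 0.05 was found for 3, beside 17.5% of all genes tested. These, named after their values were seen, were Npas2 (0.57, SE 0.19), Cry2 (0.31, SE 0.09) and Nr1d2 (-0.37, SE 0.17). All MOCA values of Cry2 lay above its control values, as for 5.50% of all genes tested. The largest difference was that of Per1, at -0.63 (SE 0.31), also named after its values were seen. Nr1d1, a repressor of the clock, measured 73.05 ± 16.6 in control and 61.05 ± 21.7 in MOCA livers, with 59.1, 31.1, 74.8 and 79.2 in MOCA replicates 1 to 4. Bhlhe40 measured 120 ± 14.8 and 104 ± 27.5, and Clock 122 ± 4.30 and 121 ± 10.8.

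For each of the other liver cell types the summed marker level overlapped between the groups. The summed level of 6 cholangiocyte markers was 41.2 to 49.8 in control and 36.5 to 55.5 in MOCA livers. That of 6 Kupffer cell and macrophage markers was 236 to 281 and 244 to 337, that of 6 endothelial markers 341 to 404 and 337 to 346, and that of 7 stellate cell and fibroblast markers 462 to 512 and 381 to 479. Singly, 23 of these 25 markers overlapped, whereas Stab2 (endothelial) and Reln (stellate) were lower in every MOCA liver, at 126 to 131 against 136 to 171 and at 187 to 211 against 223 to 267. Over all genes tested, the groups did not overlap for 10.5%, with 4.96% lower in every MOCA liver. Of the 23 markers tested, limma and edgeR called 0, beside 0.666% and 0.675% of all genes tested. DESeq2 called 1, Reln, beside 3.54%, and 3 had an unadjusted p under 0.05, beside 17.5%.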
